A study of Mus musculus with 9 samples.

Results

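The nuclear genes of oxidative phosphorylation were taken as every gene whose annotated symbol begins with Nduf, Uqcr or Atp5, begins with Cox4, Cox5, Cox6, Cox7 or Cox8, or is Sdha, Sdhb, Sdhc or Sdhd. This gave 91 of the 19263 genes named on the arrays. They are 35 subunits and 7 assembly factors of complex I, 4 subunits of complex II, 8 of complex III, 20 of complex IV and 17 of complex V, with Ndufa4 and its homologue Ndufa4l2 counted in complex IV. One array design carried 85 of these genes on 87 features, and the other carried 90 on 126 features. Both designs held 84 of them.

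Oxidative phosphorylation takes electrons from NADH (through complex I) and from succinate (through complex II), passes them by way of complex III and cytochrome c to oxygen at complex IV, and uses the resulting proton gradient to make ATP at complex V. Complex II is also an enzyme of the tricarboxylic acid cycle. Most subunits are encoded in the nucleus and a few in mitochondrial DNA, and several complex IV subunits exist in a widely expressed form and in forms restricted to tissues such as heart, muscle or testis. The features with a gene name covered 0 of 13 mitochondrially encoded subunits, so the values below concern the nuclear genes.

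The study asked which genes respond to CCAT, a transcription factor that consists of the C-terminus of a calcium channel, CaV1.2, in Neuro2A, a mouse neuroblastoma line. Cells received the PA1 plasmid with Lipofectamine 2000, and those expressing GFP were collected by fluorescence-activated sorting after 24 hours. Full-length CCAT (FL) is the last 503 amino acids of the channel, and the truncated form (called DTA or DTS in the labels) is the last 280, without the transcriptional activation domain. The 9 two-colour arrays form 3 groups of 3: FL against untransfected cells and DTA against the same kind of control, which share one array design, and FL against cells carrying the empty PA1 plasmid, on the other design. Untransfected cells were passed through the sorter too, and empty-vector cells were transfected and sorted for GFP like the FL cells. The labels do not say whether the 3 arrays of a group came from separate cultures, so the p-values reflect array-to-array spread alone, which may be technical.

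Every value is a log2 ratio of 2 RNAs on 1 array, not an expression level, and levels of different genes cannot be compared with it. A positive ratio is read here as higher in the CCAT-transfected cells. The sources do not state the order of the ratio, so this direction is likely rather than given, and all directions would turn together if it were reversed. It rests on the design text, by which plasmid transfection raises some genes, and on 2 reference genes. The chemokine gene Cxcl10 was at 5.38 and 5.54 in the FL and DTA arrays against untransfected cells and at 0.23 against empty vector, and the connexin gene Gjb5, a target reported for CCAT, was at 3.84 against empty vector. The CCAT RNA carried Cy3 and the control RNA Cy5 on every array. Within a group a dye effect and a change in RNA therefore cannot be told apart, while the difference between FL and DTA arrays compares arrays with the same dye order. Fewer transcripts per cell and fewer cells that make them cannot be told apart either. Signal intensities were not used, so whether a dim member stood above background, and whether the cells express the markers of their line, was not tested.

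One DTA array (replicate 3) has a title and source name for the truncated construct and a treatment text that names the full-length one. By its values over the 85 members it lay 0.017 (median absolute difference, log2) from the mean of the other DTA arrays and 0.098 from the FL mean, and 75 members were nearer to DTA against 10 nearer to FL. On one array of FL against empty vector (replicate 1), the treatment text of the control channel names the green channel, the other dye than its label field. The spread between arrays was small for these genes: the median SD was 0.035 for FL and 0.018 for DTA against untransfected cells and 0.017 for FL against empty vector, where all genes had 0.071, 0.041 and 0.041. The part of other cells' markers in the results was not tested. Of the fibroblast markers 2 were higher and 6 lower of 10 with FL, and 2 and 4 with DTA. The glial markers gave 1 higher and 3 lower of 9 with FL and 0 and 3 with DTA, the immune markers 0 and 2 of 7 with FL and 1 and 3 with DTA, and the Neuro2A markers 5 and 7 of 14 with FL and 6 and 5 with DTA. Against empty vector these numbers were 0 and 4 of 10 for fibroblast, 0 and 3 of 9 for glial, 0 and 1 of 7 for immune and 3 and 5 of 14 for Neuro2A markers. For FL minus DTA they were 0 and 4 for fibroblast, 0 and 0 for glial, 1 and 0 for immune and 3 and 4 for Neuro2A markers. Over all genes 34.7% were higher and 35.1% lower with FL, 35.7% and 36.1% with DTA, 30.6% and 32.8% against empty vector, and 18.2% and 16.1% for FL minus DTA. The fibroblast markers thus had 40% lower for FL minus DTA and against empty vector and 0 higher in both.

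Across the 85 members the shifts were small, and FL lay above DTA more often than below it. A gene is called when its Benjamini-Hochberg adjusted p in limma, taken over all named genes, is under 0.05. With FL against untransfected cells 68 of 85 members were called (69.8% of all genes were), and 42 were higher (49.4%, where 34.7% of all genes were) and 26 lower (30.6%, where 35.1% were). With DTA against untransfected cells 60 were called (71.8% of all genes were), and 26 were higher (30.6%, where 35.7% of all genes were) and 34 lower (40%, where 36.1% were). Since most genes of the array are called in these groups, a call by itself sets no member apart. At least a 1.5-fold change was called for 3 members with FL (8.47% of all genes) and 4 with DTA (10.7%), and at least a 2-fold change for 0 members in each (1.62% and 2.33%).

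FL minus DTA, tested in the same fit over the 6 arrays, was called for 38 of 85 members (34.2% of all genes were). It was higher for 33 (38.8%, where 18.2% of all genes were) and lower for 5 (5.88%, where 16.1% were). Every FL array lay above every DTA array for 46 members (54.1%), where this held for 26% of all genes. The median member was at 0.05 with FL, at -0.018 with DTA and at 0.069 for FL minus DTA, beside -0.002, -0.006 and 0.003 over all genes. Without DTA replicate 2 the median with DTA was -0.034. By array, the median over members was 0.06, 0.058 and 0.072 in the FL arrays and -0.038, -0.009 and -0.031 in the DTA arrays, so the arrays of each construct lay together. Ratios at the lower limit of the scale occurred on these FL arrays and not on the DTA arrays. Whether both were processed alike was not tested. Each DTA array mattered to the count: without replicate 1, 2 or 3 of DTA, 23, 23 and 22 members were called for FL minus DTA in place of 38, while 22.6%, 21.8% and 20.7% of all genes were in place of 34.2%. The called members were mostly subunits of complexes I, II and IV: 17 higher and 2 lower of 33 in complex I, 3 and 0 of 4 in complex II, 2 and 0 of 8 in complex III, 9 and 2 of 19 in complex IV, 2 and 1 of 17 in complex V and 0 and 0 of 4 among assembly factors.

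**Figure D1:**
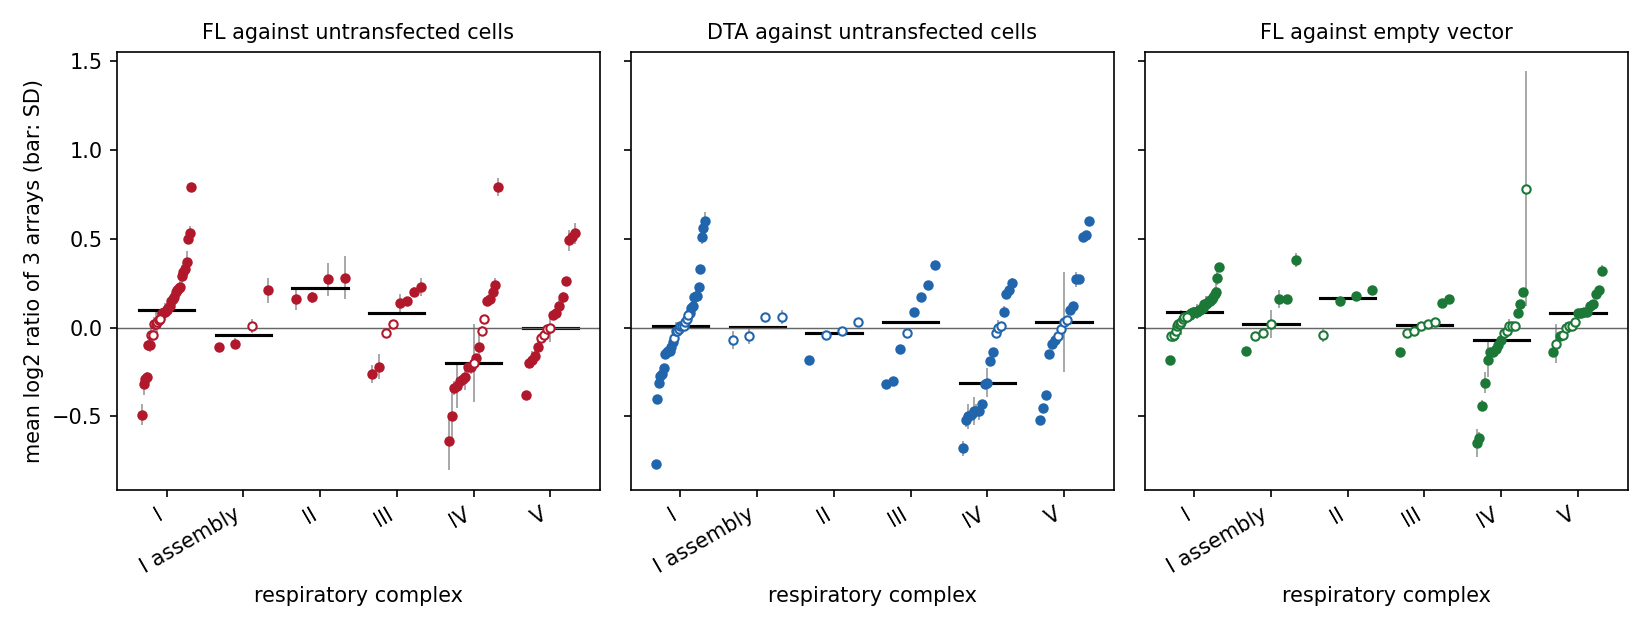
Mean log2 ratio of each member (y axis; points are means of 3 arrays, grey bars SD) by respiratory complex (x axis) in the 3 array groups; filled points passed an adjusted p of 0.05, open points did not, and black lines are medians. Complex II lies above 0 with FL (median 0.22) and near 0 with DTA (median -0.035), and complex IV has its median below 0 in all 3 groups.

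**Figure D2:**
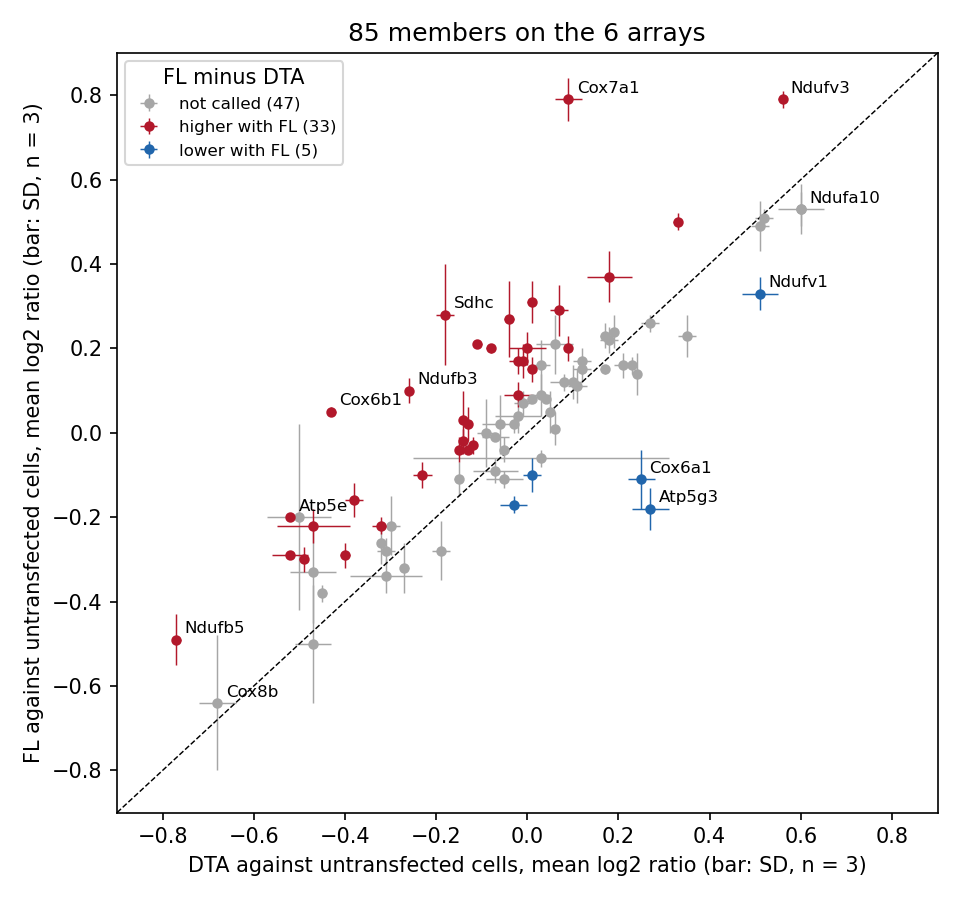
Mean log2 ratio against untransfected cells with DTA (x axis) and with FL (y axis) for 85 members, with SD bars over 3 arrays; the dashed line marks equal ratios. Most of the 33 members higher with FL (red) sit a little above the line, Cox7a1 farthest from it, and the 5 lower with FL (blue) include Cox6a1 and Atp5g3.

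All 4 subunits of complex II, succinate dehydrogenase, were higher with FL against untransfected cells, where 34.7% of all genes were. With DTA 0 were higher and 1 lower, where 35.7% and 36.1% of all genes were. Sdha, the flavoprotein that oxidises succinate, had log2 ratios of 0.17, 0.28 and 0.35 in the FL arrays and -0.06, -0.04 and -0.04 in the DTA arrays. Sdhb, the iron-sulfur subunit, had 0.14, 0.18 and 0.20 with FL and -0.04, 0.00 and -0.03 with DTA. The FL and DTA arrays did not overlap for either gene. Sdhc, a membrane anchor that helps to bind ubiquinone and haem, had 0.18, 0.24 and 0.41 with FL and -0.19, -0.15 and -0.19 with DTA. Sdhd, the other anchor, had 0.10, 0.15 and 0.23 with FL and 0.02, 0.06 and 0.02 with DTA. Here too all FL arrays lay above all DTA arrays, with the widest gap for Sdhc. Such a separation with FL above held for 26% of all genes.

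For FL minus DTA the log2 difference was 0.46 ± 0.062 (SE, n = 3 arrays a group) for Sdhc, with a limma adjusted p of 0.00389, and 0.31 ± 0.051 for Sdha, with 0.00716. Sdhb differed by 0.20 ± 0.030 (adjusted p = 0.00553). The difference of Sdhd, 0.13 ± 0.041, missed the threshold at an adjusted p of 0.0562, and passed it at 0.0364 without FL replicate 1. Sdhc was called both higher with FL (0.28, adjusted p = 0.00207) and lower with DTA (-0.18, adjusted p = 0.0116), and leaving out DTA replicate 1 (adjusted p = 0.0547) or 3 (0.057) ended the call with DTA. Against empty vector Sdha was at 0.13, 0.16 and 0.15, Sdhb at 0.18, 0.19 and 0.18 and Sdhd at 0.21, 0.23 and 0.20, all 3 higher, with means of 0.15, 0.18 and 0.21. Sdhc did not follow them there, at 0.00, -0.05 and -0.08 (mean -0.04, adjusted p = 0.176). Sdha has 3 features on that design, whose means ran from 0.06 to 0.29.

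The start regions of the complex II genes are shown because all 4 genes were higher with FL against untransfected cells and CCAT is studied as a transcription factor. Each run holds 250 bases before and 30 after the annotated start (RefSeq, assembly GRCm38.p6), 5′ to 3′ on the gene's strand, with the letters CCGGAAG, the core bound by ETS factors such as GABP, or its reverse complement, in capitals. Sdhc had no entry in the table of start regions used.
Sdha (chr13:74350211-74350490, minus strand): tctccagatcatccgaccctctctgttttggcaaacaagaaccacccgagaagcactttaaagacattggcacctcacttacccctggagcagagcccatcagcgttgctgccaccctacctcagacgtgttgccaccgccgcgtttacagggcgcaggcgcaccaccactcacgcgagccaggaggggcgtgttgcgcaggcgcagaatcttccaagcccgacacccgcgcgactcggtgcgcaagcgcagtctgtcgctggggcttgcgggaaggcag
Sdhb (chr4:140961021-140961300, plus strand): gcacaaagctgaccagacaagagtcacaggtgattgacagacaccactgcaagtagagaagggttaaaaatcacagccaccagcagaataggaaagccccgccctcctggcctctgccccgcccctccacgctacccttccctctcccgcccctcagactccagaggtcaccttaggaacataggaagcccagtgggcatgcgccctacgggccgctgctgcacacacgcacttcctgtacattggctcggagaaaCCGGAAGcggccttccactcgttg
Sdhd (chr9:50603820-50604099, minus strand): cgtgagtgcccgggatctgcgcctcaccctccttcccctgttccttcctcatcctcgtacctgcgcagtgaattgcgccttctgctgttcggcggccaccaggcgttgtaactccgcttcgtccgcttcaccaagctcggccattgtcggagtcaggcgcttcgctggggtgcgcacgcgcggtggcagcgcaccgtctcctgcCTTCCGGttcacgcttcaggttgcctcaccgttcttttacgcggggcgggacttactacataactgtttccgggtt
The capitals occur once in Sdhb and once in Sdhd and not in Sdha, so these letters are not common to the 3 runs. A match is a description of the letters and not a bound site.

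**Figure D3:**
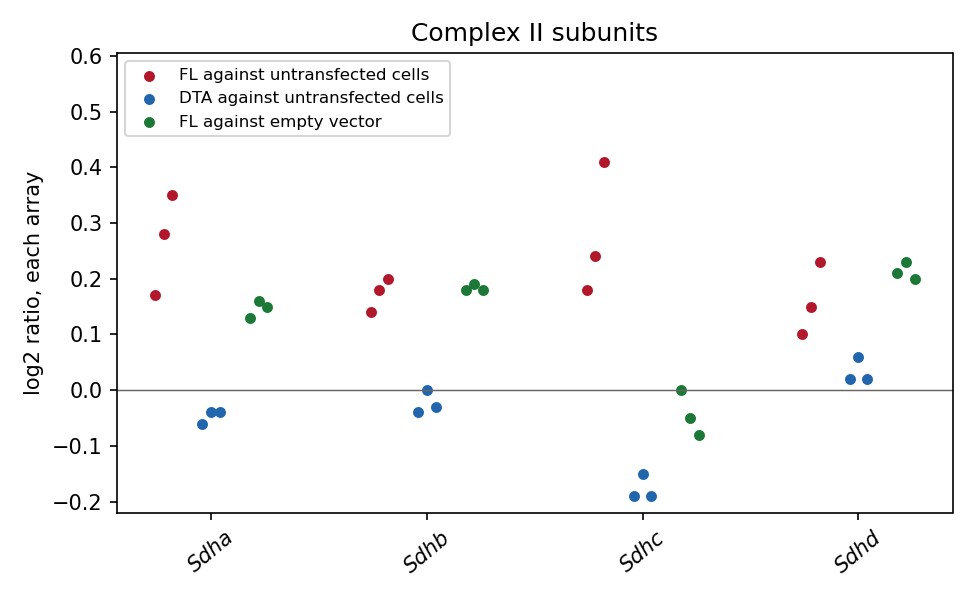
Log2 ratio on each array (y axis) for the 4 complex II genes (x axis); each point is 1 array, with 3 arrays in each of the 3 groups. FL arrays lie above DTA arrays for all 4 genes, and against empty vector Sdhc alone lies at or below 0.

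Complex I, which oxidises NADH, had 20 higher and 6 lower members of 33 with FL and 11 higher and 12 lower with DTA. All genes had 34.7% higher and 35.1% lower with FL and 35.7% and 36.1% with DTA, so the DTA counts are near those of the array at large. The highest ratios were those of Ndufv3 with FL and Ndufa10 with DTA. Ndufv3, an accessory subunit of the matrix arm, was at 0.78, 0.81 and 0.78 with FL and 0.57, 0.57 and 0.55 with DTA. Ndufa10, an accessory subunit of the membrane arm, was at 0.56, 0.52 and 0.49 with FL and 0.55, 0.59 and 0.65 with DTA. Ndufv3 thus differed between the constructs without overlap (0.23 ± 0.026, adjusted p = 0.00238), while for Ndufa10 they overlapped (-0.07, 95% interval -0.16 to 0.02). Ndufa5, a matrix-arm accessory subunit, was at 0.49, 0.49 and 0.52 with FL and 0.33, 0.34 and 0.33 with DTA. Its difference of 0.17 ± 0.026 passed the threshold (adjusted p = 0.00608). Ndufab1, the mitochondrial acyl carrier protein, was at 0.42, 0.38 and 0.30 with FL and 0.13, 0.24 and 0.19 with DTA, again without overlap (0.18 ± 0.045, adjusted p = 0.0267).

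The lowest complex I member was Ndufb5, a membrane-arm accessory subunit, at -0.43, -0.55 and -0.49 with FL and -0.78, -0.77 and -0.76 with DTA. It was lower than in untransfected cells with both constructs, and less so with FL by 0.27 ± 0.039 (adjusted p = 0.00434). Against empty vector its 3 arrays were at 0.29, 0.32 and 0.24, and it was called higher (0.28 ± 0.022, adjusted p = 0.00297). Ndufb5 therefore lay on opposite sides of 0 in the 2 comparisons. These differ in control RNA, array design and feature, which cannot be told apart here.

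Some accessory subunits changed sign between the constructs. Ndufb3, of the membrane arm, was at 0.11, 0.06 and 0.12 with FL and at -0.26 on each DTA array. Ndufa2, of the matrix arm, was at 0.21, 0.20 and 0.23 with FL and -0.12, -0.10 and -0.10 with DTA. Ndufa6, a small protein that binds Ndufab1, was at 0.20, 0.21 and 0.19 with FL and -0.07, -0.09 and -0.08 with DTA. Each of these was called higher with FL and lower with DTA, with differences of 0.36 ± 0.030 (adjusted p = 0.001), 0.32 ± 0.026 (0.00099) and 0.28 ± 0.025 (0.0012). Ndufa1, a membrane-arm subunit encoded on the X chromosome, was at 0.28, 0.29 and 0.37 with FL and 0.01, 0.01 and 0.00 with DTA. It was called with FL (0.31, adjusted p = 0.000132) and not with DTA (adjusted p = 0.814), and the difference itself was 0.30 ± 0.036 (adjusted p = 0.00241).

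Of 27 accessory subunits on the 6 arrays 15 were higher with FL than with DTA and 0 lower, where 18.2% of all genes were higher and 16.1% lower. Of the 6 core subunits measured there, which are conserved in bacteria, 2 were higher and 2 lower, and the difference between the roles was not tested. Ndufv1, the core subunit that binds NADH, was at 0.33, 0.29 and 0.37 with FL and 0.46, 0.53 and 0.53 with DTA. It was higher than in untransfected cells with both and lower with FL than DTA by -0.18 ± 0.036 (adjusted p = 0.0145), a call lost without DTA replicate 2 (0.062) or 3 (0.064). Ndufs8, an iron-sulfur core subunit, was at -0.07, -0.14 and -0.08 with FL and -0.01, 0.03 and 0.02 with DTA (difference -0.11, adjusted p = 0.043). Against empty vector, on the other array design, Ndufs8 had the highest complex I ratio, at 0.36, 0.34 and 0.31. Its sign there thus differed from that with FL against untransfected cells. Ndufs1, the largest iron-sulfur subunit, moved little, at 0.09, 0.09 and 0.08 with FL and 0.00, 0.02 and 0.02 with DTA (difference 0.07, 95% interval 0.01 to 0.13, adjusted p = 0.0756).

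Among complex I assembly factors, which help to build the complex without staying in it, Ndufaf5 stood highest with FL. It was at 0.23, 0.28 and 0.13 with FL and 0.02, 0.10 and 0.06 with DTA. The arrays did not overlap, and the difference of 0.15 ± 0.048 missed the threshold (adjusted p = 0.0575) with all arrays and passed it without FL replicate 3 (0.19, adjusted p = 0.0205). Ndufaf3 and Ndufaf4 were called lower with FL, at -0.09 and -0.11, and not called with DTA, at -0.07 and -0.05, with no called difference between constructs (adjusted p = 0.673 and 0.191).

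Complex III, which passes electrons from ubiquinol to cytochrome c, had 4 higher and 2 lower of 8 with FL (34.7% and 35.1% of all genes) and 4 and 3 with DTA (35.7% and 36.1%). Uqcrb, a small subunit, was the highest, at 0.19, 0.22 and 0.29 with FL and 0.35, 0.37 and 0.33 with DTA. Uqcrh, the hinge subunit near cytochrome c1, was the lowest, at -0.23, -0.23 and -0.32 with FL and -0.31, -0.33 and -0.32 with DTA. FL and DTA overlapped for Uqcrh and not for Uqcrb, whose difference of -0.12 had an adjusted p of 0.051, and of 0.018 without FL replicate 3. The core proteins Uqcrc1 and Uqcrc2 stood on opposite sides of 0, at 0.15 and -0.22 with FL and 0.17 and -0.30 with DTA. Uqcrfs1, the Rieske iron-sulfur protein, was called lower with DTA (-0.12) and not with FL (-0.03). Its difference of 0.10 (adjusted p = 0.0398) lost its call under 10 alternatives, among them leaving out any 1 DTA array (adjusted p of 0.111, 0.101 and 0.143), FL replicate 1 (0.0708) or FL replicate 2 (0.102). For Uqcr11, a small subunit, the difference of 0.11 (adjusted p = 0.0281) lost it under 5, among them any 1 DTA array (0.0851, 0.0901 and 0.102) and FL replicate 1 (0.0553).

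Complex IV, cytochrome c oxidase, had 5 higher and 11 lower of 19 with FL and 4 higher and 12 lower with DTA. All genes had 34.7% higher and 35.1% lower with FL and 35.7% and 36.1% with DTA. This complex held the member with the largest difference between constructs. Cox7a1, the form of subunit VIIa known from heart and skeletal muscle, was at 0.77, 0.75 and 0.85 in the FL arrays and 0.12, 0.08 and 0.06 in the DTA arrays. The difference of 0.70 ± 0.038, a ratio of 1.63, was the only one of the 85 beyond 1.5-fold (limma adjusted p = 0.000526), where 2.07% of all genes were called at that size. Against empty vector Cox7a1 was not higher: its arrays were at -0.10, -0.14 and -0.11, and it was called lower (-0.12, adjusted p = 0.01), a call lost without replicate 2 (0.0557). Cox7a2, the widely expressed form, was at -0.04, -0.02 and 0.01 with FL and -0.14, -0.13 and -0.15 with DTA, so FL lay above DTA by 0.12 (adjusted p = 0.0198), with the call lost without FL replicate 2 (0.0518) or any 1 DTA array (0.0663, 0.0697 and 0.0824). Cox7a2l, known as a factor that joins respiratory complexes into supercomplexes, was at -0.32, -0.32 and -0.26 with FL and -0.48, -0.49 and -0.50 with DTA (difference 0.19, adjusted p = 0.00609).

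Cox6b1, the widely expressed form of subunit VIb, which faces cytochrome c, was at 0.05, 0.04 and 0.06 with FL and -0.44, -0.42 and -0.42 with DTA. The groups were far apart beside their spread, with a difference of 0.48 ± 0.026 (adjusted p = 0.000536). Most of it lay on the DTA side, where Cox6b1 was called lower (-0.43, adjusted p = 1.19e-05), while with FL it was not called (0.05, adjusted p = 0.0506, and 0.0341 with arrays centred on their median). Against empty vector it was at 0.12, 0.14 and 0.13 and was called higher (adjusted p = 0.0052). Its testis form Cox6b2 was lower in all 3 groups, at -0.34, -0.31 and -0.44, with no called difference between constructs (-0.03, 95% interval -0.15 to 0.10). The start regions of Cox6b1 and Cox7a1 are printed because these were the members with the largest differences, with the same letters in capitals.
Cox6b1 (chr7:30626085-30626364, minus strand): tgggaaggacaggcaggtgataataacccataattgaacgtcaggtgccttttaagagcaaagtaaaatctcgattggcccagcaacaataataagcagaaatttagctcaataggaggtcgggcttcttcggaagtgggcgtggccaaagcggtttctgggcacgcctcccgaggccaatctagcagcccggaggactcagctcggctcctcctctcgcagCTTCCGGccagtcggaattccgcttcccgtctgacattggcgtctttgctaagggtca
Cox7a1 (chr7:30183921-30184200, plus strand): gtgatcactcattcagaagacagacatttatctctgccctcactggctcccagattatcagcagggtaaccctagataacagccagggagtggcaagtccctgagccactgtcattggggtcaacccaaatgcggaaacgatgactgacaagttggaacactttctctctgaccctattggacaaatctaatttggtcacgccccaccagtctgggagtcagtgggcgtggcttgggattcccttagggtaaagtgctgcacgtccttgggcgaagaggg
The capitals occur once in Cox6b1 and not in Cox7a1.

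The tissue-restricted or alternative forms of complex IV subunits were mostly lower in the CCAT channel in all 3 groups. Counted here are Cox4i2, Cox6a2, Cox6b2, Cox7a1, Cox7b2, Cox8b, Cox7a2l and Ndufa4l2, with Cox8c in place of Ndufa4l2 against empty vector. Cox7a2l, the supercomplex factor, is thus among them and was called lower in all 3 groups. Of the 8 on the 6 arrays 6 were lower and 1 higher with FL, and 7 lower and 1 higher with DTA, and of the 8 measured against empty vector 6 were lower and 0 higher, where 35.1%, 36.1% and 32.8% of all genes were lower. The member higher with DTA was Cox7a1 (0.09), whose call was lost without any 1 DTA array (adjusted p of 0.117, 0.0856 and 0.0596). Their medians were -0.315, -0.481 and -0.212. Cox8b, the heart and muscle form of subunit VIII, was at -0.80, -0.65 and -0.48 with FL, at -0.71, -0.69 and -0.64 with DTA and at -0.74, -0.59 and -0.63 against empty vector. It was below 0 on all 9 arrays. On replicates 2 and 3 against empty vector it lay near a ratio that many features share, described further on. Cox6a2, the heart and muscle form of subunit VIa, was at -0.27, -0.37 and 0.05 with FL and -0.43, -0.56 and -0.50 with DTA. The call with FL was missed (adjusted p = 0.0664) through replicate 3, without which it was at -0.32 (adjusted p = 0.00231). Against empty vector Cox6a2 was at -0.63, -0.65 and -0.58, values that lie within 0.041 of a ratio many features of each array share, described further on.

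Cox4i2, the form of subunit IV known for its oxygen-dependent expression, was at -0.22, -0.31 and -0.46 with FL, -0.48, -0.52 and -0.41 with DTA and -0.35, -0.33 and -0.24 against empty vector. Ndufa4l2, a homologue of Ndufa4 known to be raised by hypoxia, was at -0.64, -0.50 and -0.36 with FL and -0.45, -0.51 and -0.45 with DTA, and was not on the other design. Both were lower in every array that measured them. Their constructs overlapped, with differences of 0.14 (95% interval -0.03 to 0.31) and -0.03 (-0.21 to 0.15), and without FL replicate 3 the difference of Cox4i2 was 0.21 (adjusted p = 0.0296). Whether these genes are expressed in the cells was not tested, since dim spots cannot be recognised without intensities. In the same arrays the widely expressed Cox4i1 was also lower, at -0.28 with FL, -0.19 with DTA and -0.14 against empty vector. Ndufa4 was lower against untransfected cells, at -0.22 with FL and -0.47 with DTA (difference 0.25, adjusted p = 0.0116), and at -0.02 against empty vector, where it was not called (adjusted p = 0.388).

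Cox7b and its testis form Cox7b2 were lower with both constructs, at -0.22 and -0.29 with FL and -0.32 and -0.52 with DTA. The difference between constructs was 0.23 ± 0.032 for Cox7b2 (adjusted p = 0.00431). For Cox7b it was 0.10 (adjusted p = 0.0451) and lost its call under 11 alternatives, among them any 1 DTA array left out (0.123, 0.0879 and 0.161), FL replicate 1 (0.0907) and FL replicate 2 (0.099). Cox8a, the widely expressed form of subunit VIII, was called higher with FL (0.16) and DTA (0.21) and lower against empty vector (-0.14). Cox8c, the testis form, was measured only against empty vector, where its arrays disagreed, at 1.15, 1.16 and 0.02. Its mean of 0.78 was not called (adjusted p = 0.089), and without replicate 3 it was 1.16 (adjusted p = 0.0166).

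**Figure D4:**
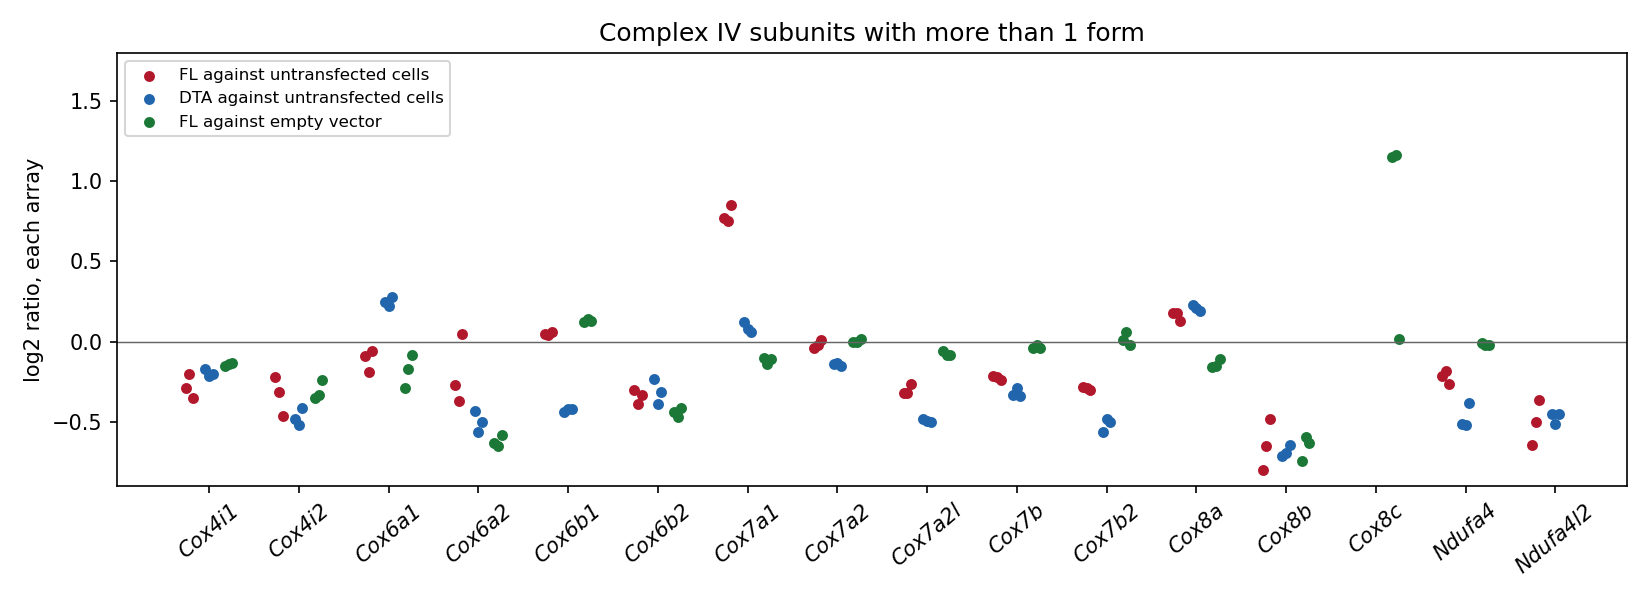
Log2 ratio on each array (y axis) for complex IV subunits that exist in more than 1 form (x axis); each point is 1 array, with 3 arrays in each of the 3 groups. Cox7a1 is high with FL against untransfected cells alone, Cox6b1 is low with DTA alone, Cox8b is below 0 on all 9 arrays, and Cox8c has 1 array apart from the other 2.

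Complex V, ATP synthase, had 8 higher and 5 lower of 17 with FL and 7 higher and 6 lower with DTA. All genes had 34.7% higher and 35.1% lower with FL and 35.7% and 36.1% with DTA. For FL minus DTA 2 members were higher (11.8%), 1 lower (5.88%) and 14 not called. Of all genes 18.2% were higher and 16.1% lower. The highest members of complex V were higher than in untransfected cells with both constructs. Atp5b, the catalytic beta subunit, was at 0.46, 0.55 and 0.57 with FL and 0.62, 0.60 and 0.59 with DTA. Every DTA array thus lay above every FL array for Atp5b, where groups without overlap, in either direction, made up 50% of all genes. Atp5d, the delta subunit of the rotor stalk, was at 0.49, 0.50 and 0.53 with FL and 0.50, 0.54 and 0.54 with DTA, and Atp5k, the membrane subunit e, was at 0.55, 0.47 and 0.45 with FL and 0.49, 0.50 and 0.53 with DTA. The differences between constructs were -0.07 (95% interval -0.17 to 0.02), -0.02 (-0.09 to 0.05) and -0.02 (-0.11 to 0.08), and none was called (adjusted p = 0.176, 0.671 and 0.777). Atp5l, the membrane subunit g, was lower with both, at -0.38 and -0.45. The subunits of this complex therefore moved in both directions at once.

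Atp5e, the epsilon subunit of the rotor stalk, was at -0.20, -0.20 and -0.21 with FL and -0.53, -0.52 and -0.53 with DTA. Both groups were below 0 with little spread, and FL lay above DTA by 0.32 ± 0.025 (adjusted p = 0.000942). Atp5md, a small membrane subunit named after its values were seen, was the other complex V member called higher with FL, at -0.16 against -0.38 with DTA (difference 0.22, adjusted p = 0.0053). Atp5j2, the membrane subunit f, showed 1 array apart, at -0.12, 0.35 and -0.13 with DTA, and was not called in either group (adjusted p = 0.578 with FL and 0.77 with DTA). Against empty vector it was at 0.31, 0.30 and 0.36 and had the highest complex V ratio as the mean of 2 features. These features had means of 0.50 and 0.15, and the lower one lies below Atp5d, at 0.21.

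The members lower with FL than with DTA numbered 5: Atp5g3, Cox6a1, Ndufv1, Ndufs8 and Cox5b, the last named after its values were seen (-0.17 with FL and -0.03 with DTA, adjusted p = 0.0153). Atp5g3 encodes the ring subunit c, as do Atp5g1 and Atp5g2. It was at -0.21, -0.19 and -0.12 with FL and 0.26, 0.25 and 0.32 with DTA, a difference of -0.45 ± 0.038 (adjusted p = 0.00106). Cox6a1, the widely expressed form of subunit VIa, was at -0.09, -0.19 and -0.06 with FL and 0.25, 0.22 and 0.28 with DTA, a difference of -0.36 ± 0.043 (adjusted p = 0.00255). Its call with FL (-0.11, adjusted p = 0.0182) was lost without FL replicate 2 (0.0669). The signs of both genes were thus reversed between constructs, unlike those of Atp5g1, at 0.26 with FL and 0.27 with DTA (difference -0.01, 95% interval -0.08 to 0.06). Atp5g2 stayed near 0, at -0.01 with FL and -0.07 with DTA, where it was called lower (adjusted p = 0.0231) and lost the call without DTA replicate 2 (0.133) or 3 (0.115).

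These values need to be read beside a ratio that many features share on each array. Apart from 0 and the limit of the scale, each array had 1 ratio at which features piled up: -0.21, -0.19 and -0.17 on the FL arrays, 0.26, 0.25 and 0.36 on the DTA arrays and -0.61, -0.62 and -0.62 against empty vector. Between 48 and 78 named features lay on it on the 6 arrays, where neighbouring values gave 15.1 to 29.8, and 33 to 43 on the 3 arrays, where they gave 4.24 to 7.39. Features of cytosolic ribosomal proteins made up 20 to 29 of them on the 6 arrays and 18 or 19 on the 3. The single Atp5g3 feature lay on this ratio on 2 FL arrays and within 0.046 of it on all 6, and the Cox6a1 feature lay on it on 1 FL array. Cox6a1 was at -0.09, -0.19 and -0.06 with FL and at 0.25, 0.22 and 0.28 with DTA. It thus had the sign of the shared ratio on all 6 arrays, and whether the 2 are linked was not tested. Among the member features 1 of 87 was within 0.1 of it on all 6 arrays (1.15%), beside 24 of 85 features of cytosolic ribosomal proteins (28.2%) and 0.231% of all named features. Between members, 0 of 3739 pairs of features on the 6 arrays and 0 of 7825 on the 3 had equal ratios on every array (within 5e-04 in log10), where 141 and 152 pairs of ribosomal features did. Saturated spots can share a ratio, and whether these spots were saturated was not tested.

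The same ratio touched Atp5b on the other design. One of its 3 features there was at -0.61, -0.62 and -0.62 and lay on the shared ratio on all 3 arrays. The other features were at 0.08, 0.05 and 0.05 and at 0.13, 0.15 and 0.13. The mean over features gave Atp5b as lower against empty vector (-0.14, adjusted p = 0.00449), and leaving out features on the shared ratio turned it to higher (0.10, adjusted p = 0.00948), as did the median over features (0.06, adjusted p = 0.0467). No direction is therefore given for Atp5b against empty vector.

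**Figure D5:**
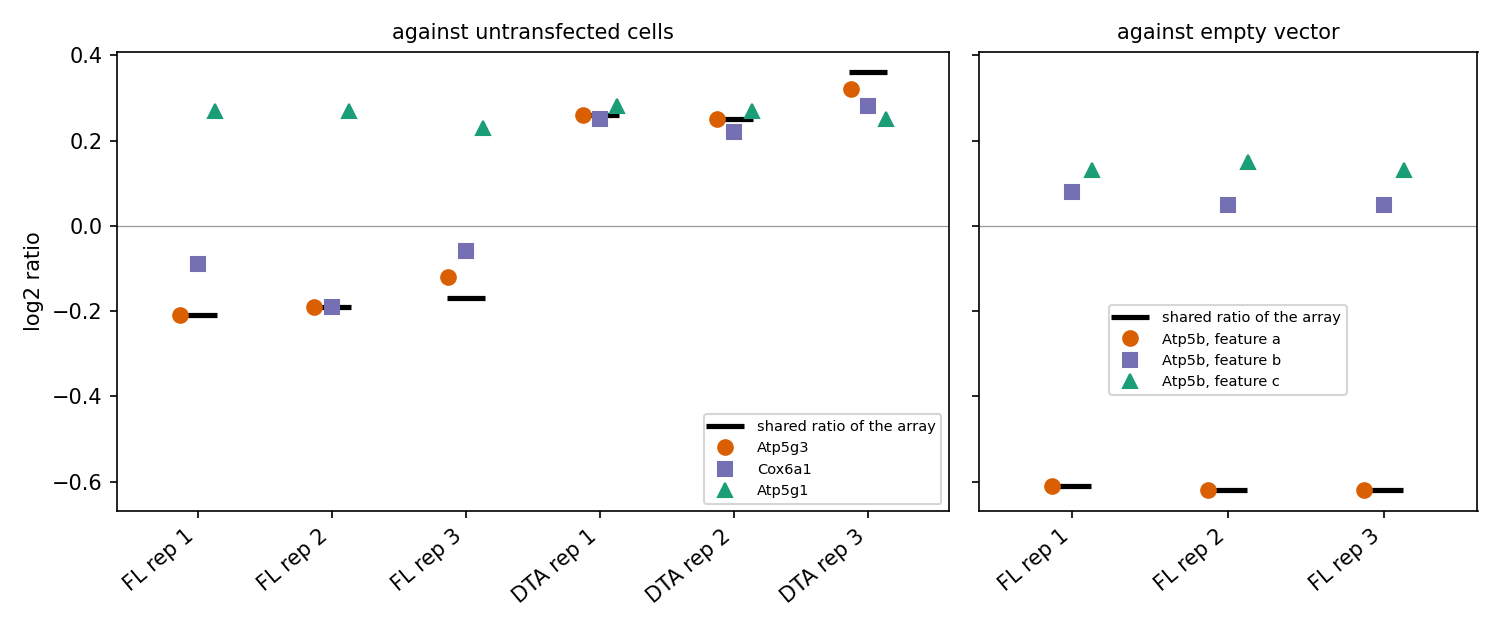
Log2 ratio (y axis) of single features on each array (x axis, 1 position per array); black dashes mark the ratio that many features of the array share, and symbols are the features of Atp5g3, Cox6a1 and Atp5g1 (left) and the 3 features of Atp5b (right). Atp5g3 lies within 0.046 of the dash on all 6 arrays while Atp5g1 does not follow it, and 1 Atp5b feature lies on it on all 3.

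Against empty vector, where both RNAs came from transfected and sorted cells, 59 of 90 members were called (63.4% of all genes were), and 43 were higher with FL (47.8%, where 30.6% of all genes were) and 16 lower (17.8%, where 32.8% were). The lower count includes Atp5b, for which no direction is given, and without features on the shared ratio 44 were higher and 15 lower. The changes were small: 2 members, Cox8b and Cox6a2, were called at 1.5-fold or more (2.13% of all genes), both lower, and 0 at 2-fold (0.262%). Cox8b was at -0.74, -0.59 and -0.63 and Cox6a2 at -0.63, -0.65 and -0.58, beside shared ratios of -0.61, -0.62 and -0.62. Both thus lay near the shared ratio, Cox8b on replicates 2 and 3 only. The median was 0.059, beside -0.005 over all genes, and by array it was 0.054, 0.069 and 0.055. Leaving out replicate 2 left 33 members called in place of 59, and 44% of all genes in place of 63.4%. By complex, 23 were higher and 2 lower of 35 in complex I, 3 and 0 of 4 in complex II, 2 and 1 of 8 in complex III, 3 and 10 of 19 in complex IV, 9 and 2 of 17 in complex V (Atp5b among the lower) and 3 and 1 of 7 among assembly factors. No DTA array was run against empty vector, so the effect of the truncation cannot be measured on this control.

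The highest called member here was the assembly factor Ndufaf5, at 0.42, 0.36 and 0.34 (0.38 ± 0.022, limma adjusted p = 0.0023). Beside Ndufs8, Atp5j2 and Ndufb5, Atp5d (0.19, 0.22 and 0.22), Cox5a, a complex IV subunit on the matrix side (0.18, 0.20 and 0.22), and Ndufab1 (0.27, 0.16 and 0.18) were also higher. Replicates lay close together for each of these but Ndufab1, whose first array was apart and whose 4 features ranged from -0.05 to 0.34. The lowest complex I member was Ndufa13, which is also studied as a regulator of cell death, at -0.18, -0.19 and -0.18. Among complex III subunits Uqcrb was highest (0.16) and Uqcr10 lowest (-0.14), and among assembly factors Ndufaf2 was lowest (-0.13). Ndufv3 and Ndufa10, both high against untransfected cells, were at -0.02 (adjusted p = 0.223) and 0.14 (adjusted p = 0.0109). Ndufv3 has 3 features on this design, at means from -0.32 to 0.19.

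Agreement between features of one gene limits these small shifts. Of 24 members with more than 1 feature on the 3-array design 10 had features with both signs, and the median range between the features of a gene was 0.12. On the 6 arrays only 2 members had more than 1 feature, so for the others this agreement cannot be checked there. One of them, Atp5pb, named after its values were seen, had features at -0.06 and 0.30 with FL and -0.24 and 0.43 with DTA. Its means of 0.12 and 0.10 were called higher with both constructs, although its features had opposite signs. Atp5a1, the alpha subunit, had a called mean of 0.19 (adjusted p = 0.00336) over 3 features at -0.04 to 0.51, and with RefSeq features alone it was at 0.02 (adjusted p = 0.236). Small values also depended on single arrays here: the call of Cox7a2l (-0.07) was lost without any 1 array (adjusted p of 0.0625, 0.103 and 0.0836), as was that of Ndufs1 (0.06, with 0.0845, 0.124 and 0.104). The call of Atp5g1 (0.08) was lost without replicate 2 (0.13) or 3 (0.11), and that of Cox6a1 (-0.18) without replicate 1 (0.0859) or 2 (0.136). Atp5g3 was not called with all arrays (-0.09, adjusted p = 0.192) and was called without replicate 3 (-0.15, adjusted p = 0.0338).

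Genes that work beside these subunits are given with the shares of all genes, which were 34.7% higher and 35.1% lower with FL, 35.7% and 36.1% with DTA, 18.2% and 16.1% for FL minus DTA, and 30.6% and 32.8% against empty vector. Cyc1, cytochrome c1 of complex III, which the symbol rule leaves out, was lower at -0.50 with FL and -0.33 with DTA and was at 0.00 against empty vector (adjusted p = 0.8). Cycs, cytochrome c, was higher at 0.22 and 0.18 and was at 0.03 against empty vector (adjusted p = 0.137). A list of 11 measured neighbours held Cyc1, Cycs, Etfa, Etfb, Etfdh, Dhodh, Gpd2, Coq10b and the carriers Slc25a3, Slc25a4 and Slc25a5. Of these 3 were higher and 5 lower with FL, 5 and 3 with DTA, and 2 and 3 for FL minus DTA. Against empty vector 7 were higher and 0 lower, and Cyc1 and Cycs were not among the called. Assembly factors outside the symbol rule gave 11 higher and 10 lower of 30 with FL, 11 and 11 with DTA, 8 and 3 for FL minus DTA, and 21 and 3 of 33 against empty vector. Tmem70, an assembly factor of ATP synthase, was at -0.15 with FL and -0.56 with DTA, and Cox17, the copper chaperone of complex IV, at -0.07 and 0.54. Atpaf1, another assembly factor of ATP synthase, went the other way from Tmem70, at 0.03 with FL and 1.65 with DTA. Its difference of -1.61 was called (limma adjusted p = 0.000556), and 1.65 was the highest ratio of this list with DTA.

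Regulators of mitochondrial gene expression gave 5 higher and 5 lower of 17 with FL, 6 and 7 with DTA, 3 and 2 for FL minus DTA, and 8 and 3 against empty vector. Gabpa, the DNA-binding subunit of GABP, was at 0.70 with FL, 0.70 with DTA and 0.22 against empty vector, called in each. Nrf1, a factor that binds promoters of respiratory genes, was called higher with DTA (0.35) and not with FL (-0.06, adjusted p = 0.335), with a difference of -0.41 (adjusted p = 0.0103). Tricarboxylic acid cycle genes gave 6 higher and 3 lower of 13 with FL, 7 and 6 with DTA, 5 and 4 for FL minus DTA, and 6 and 2 against empty vector. Cs, citrate synthase, was at 0.59 with FL and 0.42 with DTA (difference 0.17, adjusted p = 0.0358). Much larger values occurred among genes linked to the hypoxia factor HIF, a list that also holds the members Cox4i2 and Ndufa4l2. Of these genes 8 were higher and 2 lower of 11 with FL, 7 and 2 with DTA, 5 and 1 for FL minus DTA, and 5 and 3 of 10 against empty vector, and the 2 lower with FL and with DTA were those members. Pdk1, a kinase that inhibits pyruvate dehydrogenase, was at 3.45, 2.88 and 2.79 with FL, 1.70, 2.37 and 2.33 with DTA and 0.10, 0.19 and 0.18 against empty vector. Its ratios against untransfected cells exceeded those of every member of the respiratory complexes, and against empty vector it was at 0.16. FL lay above DTA for Pdk1 by 0.90 (adjusted p = 0.0385), while Egln3, an oxygen-dependent prolyl hydroxylase of HIF, went the other way, at 1.13 with FL and 3.18 with DTA (difference -2.05, adjusted p = 0.0157).

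Mitochondrial and cytosolic ribosomal proteins, both large sets of coexpressed genes, showed different counts. Of 76 mitochondrial ribosomal proteins 24 were higher and 7 lower for FL minus DTA (31.6% and 9.21%), with a median of 0.042, and of 78 against empty vector 48 and 6 (61.5% and 7.69%), with a median of 0.104. The cytosolic ribosomal proteins went the other way, with 16 higher and 40 lower of 78 for FL minus DTA (median -0.128) and 21 and 43 of 84 against empty vector (median -0.063), and many of their features lie on or near the shared ratio. The respiratory members had 38.8% and 5.88% for FL minus DTA, nearer to the mitochondrial set, and this likeness was not tested.

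Start regions were found in RefSeq for 75 of the 91 members, which gave 80 runs of 280 bases, beside 32851 runs of all genes. Letters were searched on both strands. The NRF1 palindrome occurred in 7.5% of member runs and 0.91% of all runs, the ETS and GABP letters CCGGAAG in 22.5% and 8.45%, and the YY1 letters AAGATGGC in 5.0% and 2.29%. The cores of hypoxia response elements occurred in 22.5% and 18.5% for ACGTG and in 50.0% and 30.8% for GCGTG, which differ from each other in the first letter only. Among the 32 runs of members higher with FL than with DTA the shares were 0%, 18.8%, 0%, 18.8% and 53.1% in the same order, and among the 44 runs of other members on the 6 arrays 13.6%, 25%, 6.82%, 25% and 45.5%. The members as a set thus held the ETS letters more often than promoters at large, and the members higher with FL did not hold them more often than the other members did. No test was made of these shares.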

How the data were processed

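RNA from transfected and control Neuro2A cells was labelled with Cy3 and Cy5, per the labels, and hybridised to 9 Agilent mouse arrays of 2 designs. The authors deposited 1 log10 ratio per feature. They used the Rosetta Luminator system, per the series' design text, and the background correction, dye normalization and filters are not given in the sources used here. No intensities were used, so a feature's precision is known only from the 3 arrays of a group, and their number limits it. Ratios were converted to log2. The base of 10 is not stated there and was taken because the scale ends at -2 on 3 arrays, and all log2 values rest on it. These were the 3 FL arrays against untransfected cells, with 24, 104 and 158 features at that limit, where each DTA array had 0. FL replicate 1 of that group alone gave log10 ratios beyond 0.1 to 3 decimals. Whether such differences between the FL and DTA arrays affect FL minus DTA was not tested.

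Gene symbols came from the annotation of each design, were compared with RefSeq genes of GRCm38.p6, and features of a gene were averaged, which gave 16504 genes on the 6 arrays and 19087 on the 3. The test was that of limma 3.58.1 (R 4.3.3; lmFit, then eBayes) with Benjamini-Hochberg adjustment over all named genes and 0.05 as threshold. One fit held the FL and DTA arrays against untransfected cells (4 residual degrees of freedom) and another the 3 remaining arrays (2), so that all tests use only these and the spread that limma borrows across genes. The steps were tested on simulated data. Shared ratios were found as the value with most features (within 2e-04 in log10) beyond those of its neighbours.

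Members and gene lists were chosen with earlier results of these data known. Values are given for all complex II genes, paralogue sets, catalytic subunits, the highest and lowest member of each complex and up to 12 called members with the largest ratio in each comparison. Same-numbered FL and DTA arrays showed little common deviation and the labels do not tie them, so the reported fit holds no pairing. Other scalings, features, filters, fits and thresholds, and each array left out, were tried. Figures were drawn with matplotlib 3.10.9.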

Additional observations from a re-analysis of the deposited data

How the results depend on the processing

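Of 2170 recomputed values of named members 2101 kept their direction and their side of the threshold, 56 lost and 11 gained a call, and 2 reversed, both of them Atp5b against empty vector: 0.10 without features on the shared ratio and 0.06 with the median over features, in place of -0.14. For FL minus DTA, 38 of 85 members were called in the reported fit and 25 of the 53 left without barely varying genes. At an adjusted p of 0.01 there were 20, and 22 with the replicate number as a block (19 higher and 3 lower). With 1 array left out 22 to 39 were called. In this order 34.2%, 36.5%, 17.2%, 24.3% and 20.7% to 35.4% of all genes tested were called. Deviations of same-numbered arrays from their group means correlated at -0.04, 0.09 and 0 over all genes, and those of other pairs at -0.08 to 0.07. With 3 arrays a group this cannot decide whether the numbers pair the arrays, and whether the block fits better was not tested. Against empty vector 59 were called in the reported fit, 16 of 17 without barely varying genes, 37 at 0.01 and 33 to 45 with 1 array left out, where fewer arrays enter. The shares of all genes tested were 63.4%, 83.5%, 40.1% and 44% to 51.3% in the same order. Leaving 1 array out called 64 to 69 members with FL and 53 to 64 with DTA. Of all genes 62.7% to 68.8% were then called with FL and 61.3% to 76.1% with DTA. With each group fitted alone 59 members were called with FL and 64 with DTA, and 59.4% and 77.8% of all genes. In that limma fit the FL calls of Cox6a1 (adjusted p = 0.0734) and Ndufs1 (0.0578) were lost. The median of members with FL (0.05) was 0.061 with centred arrays, 0.158 without barely varying genes, 0.061 without features on the shared ratio, 0.036 with RefSeq features (chosen after seeing the data) and 0.048 to 0.061 with 1 array left out. With DTA (-0.018) it was 0.005 without barely varying genes and -0.034 to -0.016 with 1 array left out. For FL minus DTA (0.069) it was 0.097 without barely varying genes and 0.061 to 0.072 with 1 array left out, and against empty vector (0.059) it was 0.202 without barely varying genes, 0.047 with RefSeq features, 0.07 over single features and 0.056 to 0.06 with 1 array left out. Except for the filter on barely varying genes, which removes small ratios by construction, the cause of these shifts was not tested. Signal over background, which limits small ratios, was not used here.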
